A study of Homo sapiens with 18 samples.

Results

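The comparison was between AML874 and SEL120-34A after 8 h in OCI-AML1 cells, set directly against each other rather than each against vehicle. It took the libraries titled with either compound at 8 h, 3 for AML874 and 3 for SEL120-34A, which are 6 of the 18 libraries of the study. OCI-AML1 is an established human acute myeloid leukaemia (AML) line, and polyadenylated RNA of the treated cells was sequenced. The study title names Mediator kinase inhibition and sensitivity of AML to venetoclax, a BCL2 inhibitor. SEL120-34A is an inhibitor of the Mediator kinases CDK8 and CDK19, and AML874 is known here by its code name only. Cells given DMSO for 8 h (3 libraries) stood as vehicle, and the groups given AML874 or SEL120-34A for 24 h (3 libraries each) served to ask whether the difference between the compounds lasted. All groups came from this 1 line. The labels give no dose for either compound, so whether the doses were matched could not be told, and a difference between the compounds cannot be told apart from a difference in dose. Nothing in the labels says that the 3 libraries of a group came from separate cultures, so a p-value here reflects only how the libraries of a group spread, which may be technical. The question addressed was which transcripts tell the compounds apart, and 1 pair of compounds was compared, at 8 h and again at 24 h.

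Mediator is a large complex that carries signals from transcription factors at enhancers to RNA polymerase II at promoters. A detachable part of it, the kinase module, is made of CDK8 or its paralog CDK19, cyclin C (CCNC), MED12 or MED12L, and MED13 or MED13L. It can raise or lower the output of a gene depending on context, and in AML cells it is known for restraining genes tied to super-enhancers, many of which help to set myeloid identity. Differences are given throughout as log2 of AML874 over SEL120-34A with the standard error (SE), so a positive value means a higher level with AML874. Levels are CPM, the reads of a gene scaled to a fixed library size, as mean ± SD over 3 libraries unless each library is given. A gene was called where the adjusted p was under 0.05 (edgeR quasi-likelihood test, Benjamini-Hochberg adjustment over all 20920 genes tested).

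The libraries at 8 h held from 98975944 to 139957031 counts on genes, so that 3 counts corresponded to 0.0214 to 0.0303 CPM. Of 10 myeloid marker genes 7 had at least 1 CPM in each group, and their sum ranged from 1156 to 1161 CPM with AML874, from 1202 to 1211 CPM with SEL120-34A and from 1254 to 1259 CPM with DMSO. Of the other 3 myeloid markers, CSF2RA was at 0 in every library at 8 h and ANPEP and CD68 were near 0. Reads that map to several places are not in these gene counts, so a level of 0 does not by itself show that CSF2RA is silent. The summed erythroid markers stayed at or below 0.0361 CPM. The natural killer cell list summed to 68.6 to 70.9 CPM with AML874, 72.9 to 79.1 CPM with SEL120-34A and 71.0 to 77.7 CPM with DMSO. Most of it was NCAM1, an adhesion molecule gene, which was lower with AML874 (67.1 CPM, against 73.5 CPM with SEL120-34A and 70.6 CPM with DMSO, edgeR adjusted p = 0.0387). The T cell list summed to 5.89 to 6.33 CPM with AML874, 8.73 to 10.2 CPM with SEL120-34A and 4.54 to 5.24 CPM with DMSO. That sum came from CD247 and TRAC, which encodes the T cell receptor alpha constant chain and was lower with AML874 (3.25 CPM, against 6.17 CPM with SEL120-34A), while CD3D, CD3E, CD3G, CD5 and CD8A were at or near 0. One library stood apart: in SEL120-34A replicate 2 the genes of the hypoxia-inducible factor (HIF) list averaged 5.21 on the log2 CPM scale, against 4.78 and 4.52 in the other SEL120-34A libraries and 4.64, 4.65 and 4.72 with AML874. DMSO libraries ranged more widely on the same measure, at 5.01, 4.75 and 5.48. List counts above 2 that move by more than 1.5-fold without SEL120-34A replicate 2 are given with and without it. Counts of 1 or 2 moved by 1 call without it in several lists, and most of these moves are not given.

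The compounds differed in many transcripts at 8 h, nearly always by little. Of 20920 genes 6536 were called (31.2%), 3346 of them higher with AML874 (16.0%) and 3190 lower (15.2%). Among protein coding genes alone 20.9% were higher and 20.2% lower, and each list count at 8 h below is to be read beside these shares. The median size of the difference over the called genes was 0.21 on the log2 scale, and the median over all genes tested was 0.0012. Set against DMSO instead, AML874 had 39.6% of genes called (19.7% higher and 19.9% lower) and SEL120-34A 45.1% (22.4% higher and 22.6% lower), 2 comparisons with the same DMSO libraries. At least 1.5-fold differences were called for 290 genes higher with AML874 (1.39%) and 620 lower (2.96%). At least 2-fold differences were called for 102 higher (0.488%) and 285 lower (1.36%), most of them genes of low level, since among the 13012 genes with an average of at least 1 CPM only 4 were at least 2-fold higher and 27 at least 2-fold lower. With genes kept only at 1 CPM or more in 3 libraries, 101 genes were at least 1.5-fold higher with AML874 and 245 at least 1.5-fold lower. For 9629 genes (46.0% of those tested, and 74.0% of those of at least 1 CPM) the whole 95% interval of the difference lay within 0.32 of 0 on the log2 scale, called a narrow interval below. Of these, 6038 were not called. For each of them the interval put the difference within that size, taken 1 gene at a time without adjustment over genes. It rests on the spread between libraries, which may be technical. A further 8346 uncalled genes had intervals reaching past that bound, and for them these libraries cannot show whether the compounds differ.

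**Figure D1:**
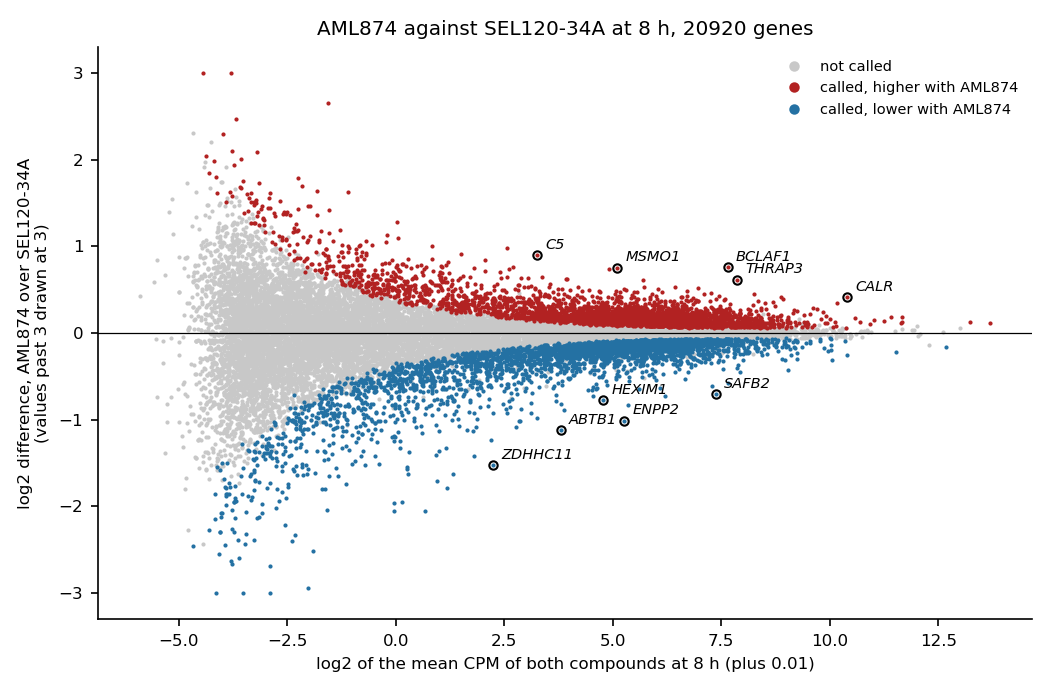
Difference between the compounds at 8 h for each gene tested. The x axis is log2 of the mean CPM over both compounds and the y axis the log2 difference, AML874 over SEL120-34A, with values past 3 drawn at 3. Red points are the 3346 genes called higher with AML874, blue points the 3190 called lower and grey points the rest. Most called genes at higher levels lie close to 0, and more genes pass 2-fold below the zero line (285) than above it (102).

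The genes of the kinase module itself were nearly level between the compounds. Of 7 members 1 was called higher with AML874, none lower, and 6 had a narrow interval. With DESeq2, with RSEM counts, with the compared groups only or without SEL120-34A replicate 2, 2 were called higher. CDK8, 1 of the paired kinases, had 36.8, 37.2 and 38.1 CPM with AML874, against 38.3, 38.5 and 37.1 CPM with SEL120-34A. Its log2 difference was -0.02, with a 95% interval from -0.09 to 0.04. CDK19, the other kinase, differed by -0.01 (interval -0.11 to 0.10), cyclin C by 0.00 (-0.06 to 0.06) and MED12, which activates the kinase, by -0.06 (-0.12 to 0.01). On the per-length TPM scale CDK8 stood at 18.2 ± 0.196 TPM with AML874 and 19.0 ± 0.744 TPM with SEL120-34A, and CDK19 at 14.9 ± 0.419 TPM with AML874 and 15.3 ± 1.10 TPM with SEL120-34A (SD, n = 3 each). The called member was MED13, the subunit that docks the module on Mediator. MED13 had 124, 124 and 118 CPM with AML874, 104, 111 and 104 CPM with SEL120-34A and 126, 127 and 133 CPM with DMSO. All AML874 libraries lay above all SEL120-34A libraries, by 0.19 ± 0.03 (edgeR adjusted p = 4.75e-06). The other 26 Mediator subunits gave 4 higher and 4 lower calls (15.4% each), below the shares over all protein coding genes. All 26 had narrow intervals, and there were 2 higher calls without AML874 replicate 2 or SEL120-34A replicate 2. The subunits MED16 (-0.18 ± 0.03), MED25 (-0.15 ± 0.03) and MED30 (-0.15 ± 0.04) were lower with AML874, and MED1, which contacts nuclear receptors, was higher (0.12 ± 0.03).

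HEXIM1 had the smallest p-value among the genes of the elongation machinery. HEXIM1 (chr17:45148502-45152101, plus strand of GRCh38, a gene of 1 exon) encodes a protein that holds the elongation kinase P-TEFb in an inactive complex with 7SK RNA. HEXIM1 had 19.4, 20.8 and 20.8 CPM with AML874, 35.3, 34.0 and 35.1 CPM with SEL120-34A and 61.8, 60.9 and 58.7 CPM with DMSO. The 3 groups did not overlap, and both compounds lay below vehicle, AML874 by -1.57 ± 0.04 and SEL120-34A by -0.80 ± 0.04 on the log2 scale, again with shared DMSO libraries. The difference between the compounds was -0.78 ± 0.04 (edgeR adjusted p = 4.82e-17). MEPCE, which caps 7SK, was lower with AML874 too (75.5 ± 0.687 CPM, against 90.3 ± 4.21 CPM with SEL120-34A, -0.26 ± 0.03). Of 28 genes for P-TEFb, BET proteins and elongation factors, 6 were higher (21.4%) and 7 lower (25%), with a median of -0.03. These shares were near those over all protein coding genes (20.9% and 20.2%). Without SEL120-34A replicate 1, 3 were higher, and with library totals as the only scaling 3 were higher and 9 lower. TFIID, the complex that binds the core promoter, had 6 of 17 subunit genes lower with AML874 (35.3%) and 1 higher (5.88%). TAF8 (-0.20 ± 0.03) was among the lower ones, and TAF12 (0.21 ± 0.04) was the higher one.

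The largest differences downward were found by taking protein coding genes that averaged 5 CPM or more under either compound and whose libraries did not overlap between the compounds, and 4582 genes met these conditions and the test in either direction. The 12 with the lowest values were ZDHHC11 (-1.53), SCART1 (-1.41), C3AR1 (-1.23), ABTB1 (-1.12), TMEM71 (-1.02), PRR22 (-1.01), ENPP2 (-1.01), YJEFN3 (-0.98), GSDMB (-0.92), MAMDC4 (-0.92), PINK1 (-0.89) and CASTOR3P (-0.87). In all of them but PINK1, SEL120-34A stood above DMSO by the test. ABTB1, a BTB and ankyrin repeat protein gene, had 8.77, 8.82 and 8.82 CPM with AML874, 18.7, 20.2 and 18.3 CPM with SEL120-34A and 15.6, 14.8 and 16.4 CPM with DMSO. The compounds thus lay on opposite sides of vehicle, with no overlap between groups, and differed by -1.12 ± 0.06 (edgeR adjusted p = 1.32e-16). PINK1, the kinase that marks damaged mitochondria for removal, had 10.3, 10.0 and 10.6 CPM with AML874, 19.3, 19.6 and 18.0 CPM with SEL120-34A and 17.7, 18.6 and 19.2 CPM with DMSO. Here SEL120-34A overlapped vehicle and AML874 lay below both, by -0.89 ± 0.05 against SEL120-34A (edgeR adjusted p = 3.32e-16). ENPP2, which encodes autotaxin, the enzyme that makes lysophosphatidic acid, had 28.1, 23.5 and 24.6 CPM with AML874, 52.0, 48.3 and 53.3 CPM with SEL120-34A and 24.3, 17.1 and 19.0 CPM with DMSO. AML874 overlapped vehicle there and SEL120-34A lay above both (-1.01 ± 0.25, edgeR adjusted p = 0.00683).

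Several of these genes need care in type or in counting. Gene types are those of GENCODE 29, where CASTOR3P is protein coding, although its current symbol is that of a pseudogene. ZDHHC11, a palmitoyltransferase gene, has a near-identical neighbour, ZDHHC11B, and overlaps BRD9 on the same strand. MAMDC4, YJEFN3 and, among genes described below, SIRPB2, ANGEL1 and ETV5 also overlap a gene on their own strand (PHPT1, NDUFA13, NSFL1C, VASH1-AS1 and DGKG), as does MXD3 (RAB24), and reads shared by such pairs may be split or dropped. The values of ZDHHC11 were 2.43, 2.40 and 2.51 CPM with AML874, 7.20, 6.80 and 7.14 CPM with SEL120-34A and 4.40, 4.22 and 4.42 CPM with DMSO. C3AR1, which encodes the C3a receptor of the complement system, was more variable, with 3.23, 2.09 and 2.79 CPM with AML874, against 6.32, 6.16 and 6.67 CPM with SEL120-34A (edgeR adjusted p = 0.00304).

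The 12 largest differences upward were smaller, from 0.57 to 0.90. They were C5 (0.90), PIGZ (0.84), BCLAF1 (0.76), MSMO1 (0.75), ANGEL1 (0.74), PSEN2 (0.65), GNE (0.65), PCCA (0.63), SIRPB2 (0.63), PCYOX1L (0.62), THRAP3 (0.62) and DNAJC30 (0.57). C5, the complement component that is cleaved into the C5a attractant, had 13.3, 12.5 and 11.4 CPM with AML874, 6.75, 7.00 and 6.19 CPM with SEL120-34A and 6.26, 5.68 and 5.98 CPM with DMSO. Only the AML874 libraries stood high, and the difference was 0.90 ± 0.06 (edgeR adjusted p = 4.71e-14). PIGZ, a mannosyltransferase of the glycosylphosphatidylinositol anchor, and SIRPB2 had the same pattern, with 5.30 ± 0.373 and 18.8 ± 0.511 CPM with AML874, 2.95 ± 0.311 and 12.2 ± 0.693 CPM with SEL120-34A and 2.99 ± 0.103 and 12.5 ± 0.396 CPM with DMSO. Other genes were low with SEL120-34A instead. ANGEL1, a relative of the CCR4 deadenylase family, had 36.8, 38.2 and 38.6 CPM with AML874, 21.9, 23.1 and 22.9 CPM with SEL120-34A and 35.3, 36.8 and 35.5 CPM with DMSO. AML874 met the range of vehicle, SEL120-34A lay below it, and the compounds differed by 0.74 ± 0.04 (edgeR adjusted p = 1.32e-16). PCCA, a subunit of the mitochondrial propionyl-CoA carboxylase, had this order as well (18.3 ± 0.767 CPM with AML874, 11.9 ± 0.173 CPM with SEL120-34A and 18.1 ± 0.582 CPM with DMSO), as did DNAJC30, a mitochondrial J-domain protein gene (14.0 ± 0.567, 9.44 ± 0.211 and 14.0 ± 0.168 CPM in the same order of groups).

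**Figure D2:**
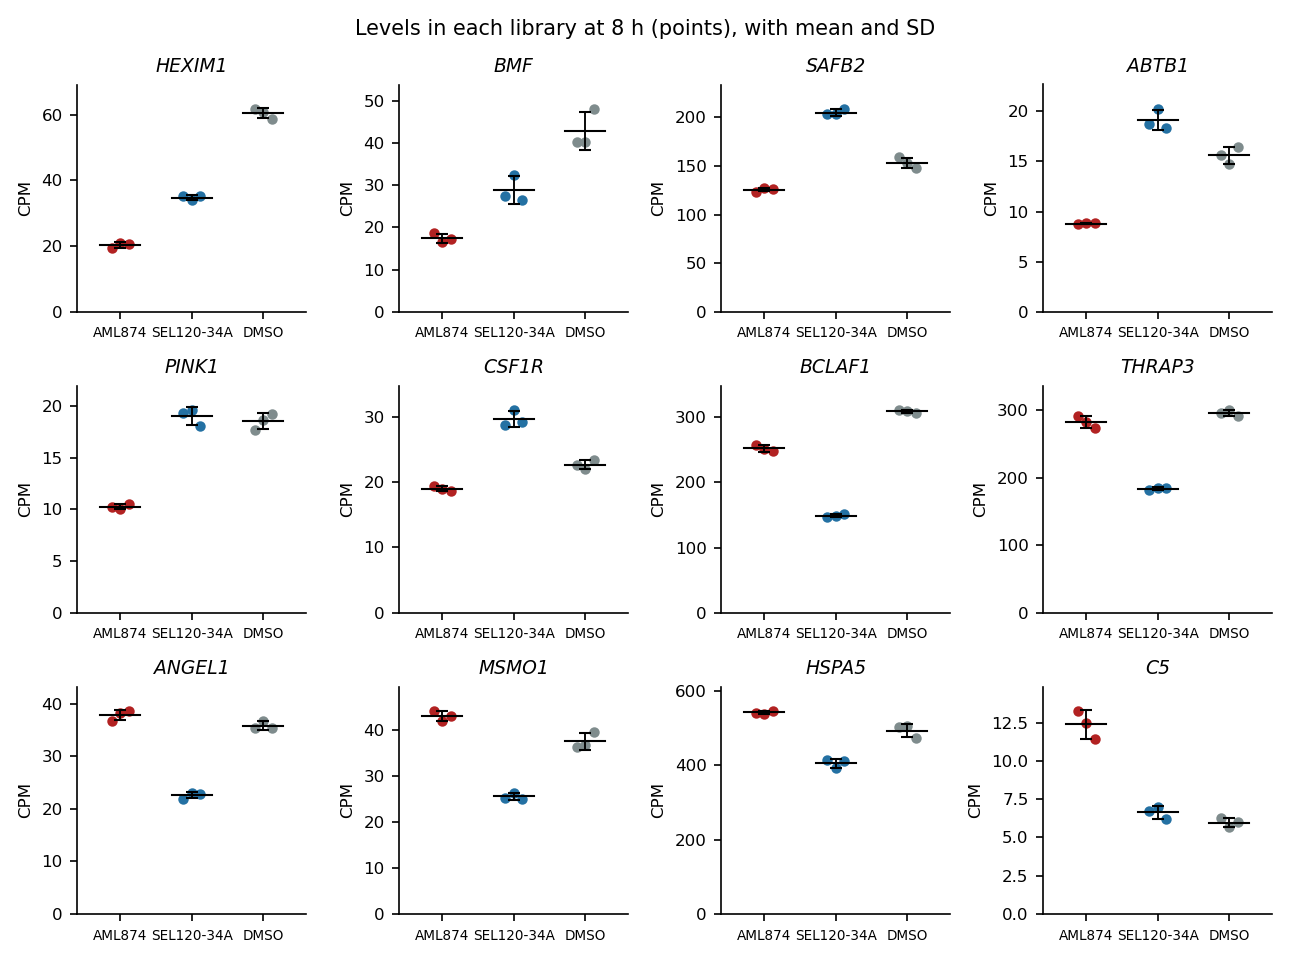
Levels of 12 genes at 8 h in CPM, in panels from HEXIM1 to C5, each with its own y axis starting at 0. Points are the libraries given AML874 (left), SEL120-34A (middle) and DMSO (right), with the mean and SD of 3 libraries. HEXIM1 and BMF are lowest with AML874, intermediate with SEL120-34A and highest with DMSO, SAFB2, ABTB1 and CSF1R have the compounds on either side of DMSO, and ANGEL1, THRAP3 and MSMO1 are low with SEL120-34A.

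A pair of related RNA-binding proteins separated the compounds by the smallest p-values of the upward genes. BCLAF1 (chr6:136256627-136289851, minus strand) and THRAP3 (chr1:36224416-36305357, plus strand) encode arginine- and serine-rich proteins that act in splicing and export of mRNA. BCLAF1 had 258, 251 and 248 CPM with AML874, 147, 149 and 152 CPM with SEL120-34A and 311, 309 and 306 CPM with DMSO. Both compounds lay below vehicle, SEL120-34A by far the more, and the compounds differed by 0.76 ± 0.03 (edgeR adjusted p = 9.45e-21). THRAP3 had 291, 282 and 273 CPM with AML874, 181, 185 and 185 CPM with SEL120-34A and 296, 300.0 and 290.4 CPM with DMSO. AML874 overlapped vehicle, and the difference between the compounds was 0.62 ± 0.02 (edgeR adjusted p = 1.27e-19). The scaffold attachment factors went the other way. SAFB2 (chr19:5586999-5624046, minus strand), which binds RNA and nuclear matrix DNA, had 124, 128 and 126 CPM with AML874, 203, 203 and 209 CPM with SEL120-34A and 159, 153 and 148 CPM with DMSO. The compounds lay on opposite sides of vehicle and differed by -0.70 ± 0.03 (edgeR adjusted p = 2.36e-20). Its neighbour SAFB, which overlaps it on the plus strand, was lower with AML874 too (200.0 ± 4.09 CPM, against 264 ± 2.75 CPM with SEL120-34A, -0.40 ± 0.02), with reads assigned by strand.

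Over 30 genes of SR, hnRNP and related RNA-binding proteins there was no common direction, with 10 higher, 9 lower and a median of 0.03. RBM14 (0.39) and SRSF2 (0.28) were higher with AML874, and HNRNPA2B1 (-0.25) and HNRNPK (-0.19) lower. These 4 were named after their values were seen. Among 15 genes of the CLK, SRPK and DYRK families, kinases that phosphorylate SR proteins or are related to those that do, 5 were higher and 4 lower, with 3 higher without AML874 replicate 1 or SEL120-34A replicate 1. CLK1 had 75.9, 77.2 and 76.2 CPM with AML874, 90.3, 94.3 and 90.5 CPM with SEL120-34A and 65.0, 63.8 and 66.8 CPM with DMSO. Both compounds lay above vehicle and SEL120-34A more so, a difference of -0.26 ± 0.03 (edgeR adjusted p = 1.07e-08). CLK4 (-0.30 ± 0.04) and CLK3 (-0.16 ± 0.03) were lower with AML874 as well.

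Chaperones of the endoplasmic reticulum (ER), which fold secreted and membrane proteins, were the list with the largest number of called members in 1 direction relative to its size. Of 22 genes 15 were higher with AML874 and 2 lower, against 20.9% higher and 20.2% lower over all protein coding genes, and the median was 0.13. HSPA5, the main ER chaperone BiP, had 542, 538 and 546 CPM with AML874, 413, 392 and 411 CPM with SEL120-34A and 502, 505 and 473 CPM with DMSO. Every AML874 library lay above vehicle and every SEL120-34A library below it, and the compounds differed by 0.42 ± 0.03 (edgeR adjusted p = 7.41e-11). CALR, the lectin chaperone calreticulin, had 1506, 1530.4 and 1550.4 CPM with AML874, 1166, 1137 and 1148 CPM with SEL120-34A and 1271, 1301 and 1236 CPM with DMSO, again with vehicle in between (0.41 ± 0.02). HSP90B1, the ER form of HSP90, differed by 0.26 ± 0.02 and CANX, the membrane lectin calnexin, by 0.25 ± 0.02. The lower members were XBP1 (-0.19 ± 0.03) and ATF6 (-0.07), which encode transcription factors of the unfolded protein response. Other members of the list are not chaperones either. Of these, the protein degradation genes EDEM1 (0.14) and SEL1L (0.10) were called higher. The stress sensor genes ERN1 (-0.05) and EIF2AK3 (-0.03) were not called.

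The promoters of this list are shown because many of the ER chaperone genes are known to be regulated through the ER stress response element, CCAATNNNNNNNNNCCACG, which the factors NF-Y and ATF6 bind. The element was searched on both strands in RefSeq promoter windows from 250 bases before to 50 after the start (build GRCh38.p14). It was found in 25 of 27305 genes in the table (0.0916%), in 16 of 12032 genes tested here (0.133%) and in 7 of the 21 genes of this list with a window. These were CALR, CANX, CRELD2, HSP90B1, HSPA5 and PDIA6, all higher with AML874, and XBP1, which was lower. Of the 14 genes with a window that were called higher 6 held the element, and the others were higher without it. Of the 7 not called higher 1 held it. The calls of tested genes outside this list that hold the element are not given here. The 200 bases before the start are given 5′ to 3′ on the gene's strand for 4 of the higher genes and for XBP1, with the element or its reverse complement in capitals. HSP90B1 holds it on both strands, and CRELD2 as the reverse complement only. CRELD2, PDIA6, XBP1, ATF6, EDEM1, SEL1L, ERN1 and EIF2AK3 were named after their values were seen. The windows are chr9:125241344-125241543 (minus strand) for HSPA5, chr22:49918434-49918633 (plus) for CRELD2, chr12:103930210-103930409 (plus) for HSP90B1, chr5:179698729-179698928 (plus) for CANX and chr22:28800570-28800769 (minus) for XBP1.
HSPA5: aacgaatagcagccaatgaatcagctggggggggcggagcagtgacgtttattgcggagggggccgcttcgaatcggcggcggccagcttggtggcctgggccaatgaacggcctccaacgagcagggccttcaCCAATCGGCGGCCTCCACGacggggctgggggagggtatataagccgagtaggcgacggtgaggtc
CRELD2: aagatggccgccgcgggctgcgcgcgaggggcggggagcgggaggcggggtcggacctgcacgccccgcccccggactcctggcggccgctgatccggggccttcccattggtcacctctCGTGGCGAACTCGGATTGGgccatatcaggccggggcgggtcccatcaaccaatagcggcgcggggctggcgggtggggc
HSP90B1: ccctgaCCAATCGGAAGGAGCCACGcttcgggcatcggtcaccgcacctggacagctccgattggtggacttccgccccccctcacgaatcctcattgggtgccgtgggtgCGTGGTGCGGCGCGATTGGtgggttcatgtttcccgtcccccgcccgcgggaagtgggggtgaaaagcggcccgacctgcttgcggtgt
CANX: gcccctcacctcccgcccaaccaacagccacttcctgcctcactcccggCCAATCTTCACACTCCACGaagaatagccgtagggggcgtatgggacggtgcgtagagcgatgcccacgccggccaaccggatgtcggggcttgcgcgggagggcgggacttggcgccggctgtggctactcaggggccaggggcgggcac
XBP1: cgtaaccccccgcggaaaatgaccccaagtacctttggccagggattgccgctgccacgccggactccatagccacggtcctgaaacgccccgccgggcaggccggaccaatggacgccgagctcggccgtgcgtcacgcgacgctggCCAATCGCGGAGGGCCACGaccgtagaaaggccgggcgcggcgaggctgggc
HSPA5 and XBP1 thus hold the same element near their starts and had differences of opposite sign. A match is a description of the sequence and says nothing about binding in these cells.

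Genes of cholesterol synthesis also stood higher with AML874, 15 of 29, with 1 lower and a median of 0.13. MSMO1, a sterol methyl oxidase, had 44.0, 42.0 and 42.9 CPM with AML874, 25.2, 26.3 and 25.0 CPM with SEL120-34A and 36.1, 36.6 and 39.5 CPM with DMSO. The groups did not overlap, and the compounds differed by 0.75 ± 0.09 (edgeR adjusted p = 2.45e-05), SEL120-34A lying -0.55 ± 0.09 from vehicle and AML874 0.20 ± 0.09, which was not called. SQLE, the squalene epoxidase of the same pathway, had 102 ± 2.51 CPM with AML874, 70.4 ± 1.08 CPM with SEL120-34A and 95.8 ± 3.70 CPM with DMSO (0.54 ± 0.05 between the compounds). ACACA, which makes malonyl-CoA for fatty acids, was above both SEL120-34A and vehicle (189 ± 4.28, 156 ± 1.73 and 155 ± 3.94 CPM with AML874, SEL120-34A and DMSO). The lower member was SREBF1, which encodes the transcription factor SREBP1 (-0.21 ± 0.03). The liver X receptors raise cholesterol export and SREBF1 itself, and 4 of 10 genes for these receptors and their targets were lower with AML874 and none higher. NR1H3, the receptor LXR alpha, had 4.38, 4.47 and 4.57 CPM with AML874, 7.59, 7.48 and 8.00 CPM with SEL120-34A and 2.96, 2.79 and 2.82 CPM with DMSO. Both compounds lay above vehicle, SEL120-34A further, and they differed by -0.78 ± 0.07 (edgeR adjusted p = 9e-11). The exporter ABCG1 differed by -0.36 ± 0.06.

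Cell cycle genes split by phase. Of 36 genes of DNA replication and the G1/S transition 20 were higher with AML874 and none lower, with a median of 0.09 and values no larger than 0.28. POLA1, the catalytic subunit of DNA polymerase alpha, had 55.9, 57.0 and 55.1 CPM with AML874, 46.3, 47.4 and 47.5 CPM with SEL120-34A and 72.0, 73.8 and 73.2 CPM with DMSO. The groups did not overlap, both compounds lay below vehicle, and AML874 stood 0.25 ± 0.03 above SEL120-34A (edgeR adjusted p = 1.99e-07). Of 30 mitosis genes 18 were lower with AML874 and none higher, with a median of -0.13. KIF20A, a kinesin of cytokinesis, had 73.8, 73.6 and 71.1 CPM with AML874, 89.8, 94.7 and 96.0 CPM with SEL120-34A and 89.4, 91.0 and 89.5 CPM with DMSO. Only AML874 lay below vehicle, and the difference between the compounds was -0.36 ± 0.03 (edgeR adjusted p = 6.4e-11). CDC25B, the phosphatase that starts mitosis, was instead above vehicle with SEL120-34A only (101 ± 2.13, 121 ± 3.11 and 101 ± 0.864 CPM with AML874, SEL120-34A and DMSO). Among 13 genes of cyclin D, its kinases and their inhibitors, 2 were higher and 3 lower, and CDK4 was higher with AML874 (0.18 ± 0.03). RBL2 and CCND2, among the lower ones, lost their call under some alternatives.

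In a list of replication-independent and linker histone genes 7 of 13 were lower with AML874 and none higher, with a median of -0.11. The lower ones include H2BC12 (-0.17 ± 0.05) and H2BC21 (-0.53 ± 0.12, the lowest value), H2B genes of the canonical histone clusters. The list name thus does not hold for all members. H2BC12 was named after its values were seen. H1-10, a linker histone, had 132, 135 and 138 CPM with AML874, 171, 170.2 and 173 CPM with SEL120-34A and 311, 321 and 327 CPM with DMSO. The groups did not overlap, both compounds lay below vehicle, and AML874 differed from SEL120-34A by -0.35 ± 0.03 (edgeR adjusted p = 6.85e-11). Over all 23 protein coding histone genes of at least 1 CPM, 13 were lower and none higher, with a median of -0.21. Canonical histone mRNAs lack a poly(A) tail, so their levels in polyadenylated RNA count the tailed part only.

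**Figure D3:**
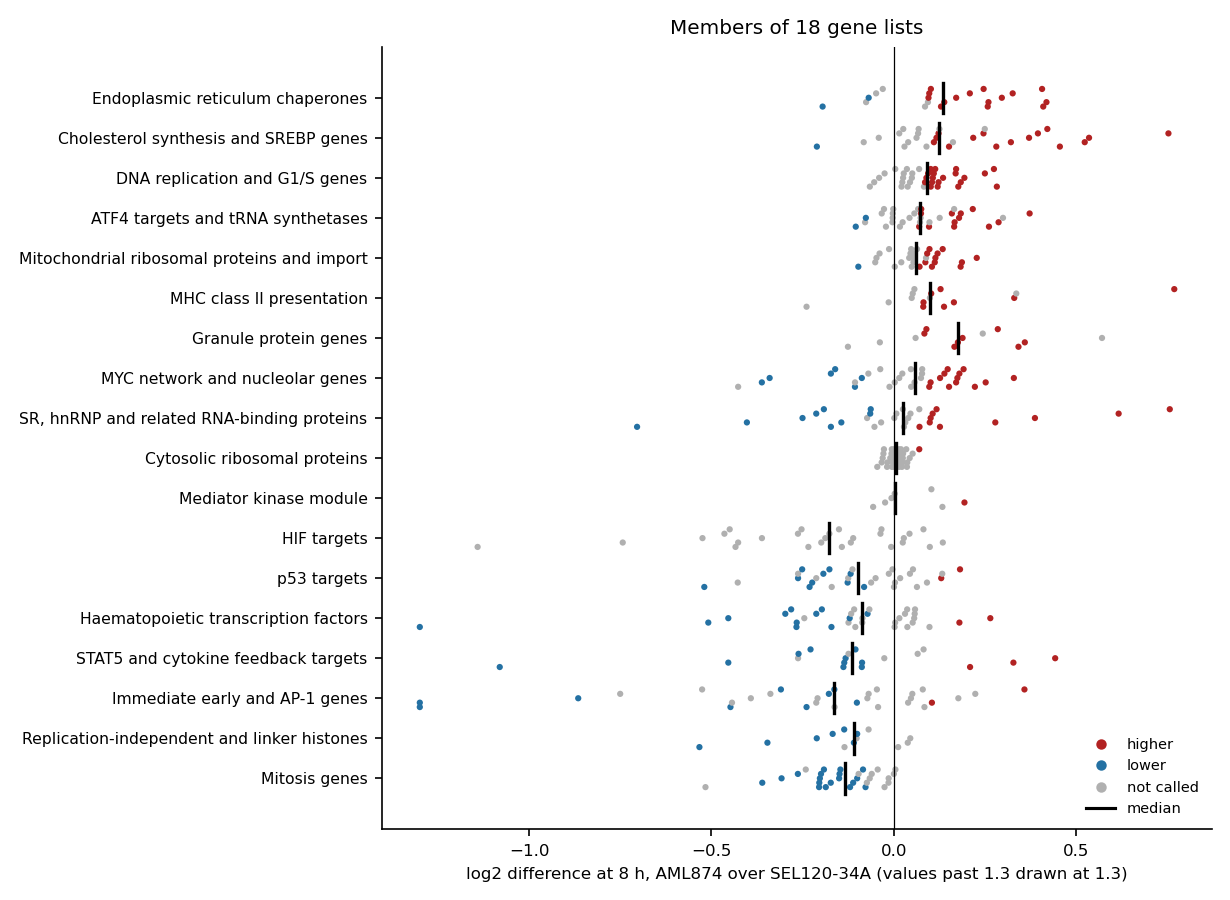
Members of 18 gene lists at 8 h, 1 point a gene, by log2 difference of AML874 over SEL120-34A, with values past 1.3 drawn at 1.3. Red points were called higher with AML874, blue points lower, grey points not called, and black ticks are medians. The medians of ER chaperones and cholesterol genes lie at 0.13 and that of the mitosis genes at -0.13.

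Of 34 targets of ATF4, the factor of the amino acid response, and tRNA synthetases, 13 were higher and 2 lower with a median of 0.07. The isoleucine synthetase IARS1 (0.26 ± 0.03), the leucine synthetase LARS1 (0.22 ± 0.02) and the cystine transporter SLC7A11 (0.37 ± 0.07) were among the higher ones. Without SEL120-34A replicate 2, the library with high HIF targets, 8 were higher. Mitochondrial ribosomal and import genes had 12 of 28 higher and 1 lower (median 0.06), and 7 higher without that library. MRPS27 (0.23 ± 0.02) led them. In the MYC network and nucleolus 13 of 33 genes were higher (39.4%) and 6 lower (18.2%), the lower share being near that over all protein coding genes. NCL, the nucleolar protein nucleolin (0.15 ± 0.02), and POLR1A, the large subunit of RNA polymerase I (0.25 ± 0.03), were higher, while the MYC antagonists MXD3 (-0.36 ± 0.05) and MXD4 (-0.34 ± 0.03) were lower. MYC itself had 566, 586 and 585 CPM with AML874, 607, 603 and 635 CPM with SEL120-34A and 688, 679 and 677 CPM with DMSO, a difference of -0.09 ± 0.03 between the compounds (edgeR adjusted p = 0.00696). Heat shock genes had 7 of 20 higher and 1 lower, with HSP90AB1 at 0.18 ± 0.02 and the small heat shock protein HSPB1 at -0.26 ± 0.05. Of 35 cytosolic ribosomal protein genes 1 was called, RPS12 at 0.07, which lost its call under some alternatives, and all 35 intervals were narrow.

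Among the genes of the BCL2 family called at 8 h, the BH3-only genes BMF and BBC3 differed most between the compounds. BCL2, the antiapoptotic protein that venetoclax binds, had 361, 349 and 339.9 CPM with AML874, 326, 331 and 325 CPM with SEL120-34A and 322, 315 and 329.7 CPM with DMSO. The AML874 libraries lay above the others, by 0.10 ± 0.03 over SEL120-34A (edgeR adjusted p = 0.00889), and without AML874 replicate 1 the adjusted p was 0.100. BCL2L1, the gene of BCL-xL, was lower with AML874 (36.9 ± 1.36 CPM, against 43.2 ± 2.00 CPM with SEL120-34A, -0.23 ± 0.04). MCL1 was not called (-0.04, 95% interval -0.09 to 0.00), nor was BCL2A1 (0.106 ± 0.0583 CPM with AML874 and 0.149 ± 0.0458 CPM with SEL120-34A), whose low level left an interval from -1.39 to 0.33. The pore-forming BAK1 differed by -0.11 ± 0.04 (edgeR adjusted p = 0.0432), a call lost under several alternatives. Of 7 multidomain genes of the family 1 was thus higher and 2 lower.

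BH3-only proteins trigger apoptosis by binding the multidomain members. BMF had 18.6, 16.6 and 17.2 CPM with AML874, 27.6, 32.5 and 26.4 CPM with SEL120-34A and 40.3, 40.2 and 48.1 CPM with DMSO. The groups did not overlap, both compounds lay below vehicle, and the compounds differed by -0.72 ± 0.08 (edgeR adjusted p = 1.3e-05). BBC3, the gene of PUMA, had 9.85, 8.42 and 10.5 CPM with AML874, 12.7, 15.5 and 13.0 CPM with SEL120-34A and 11.3, 11.8 and 12.6 CPM with DMSO, with AML874 lowest (-0.52 ± 0.09, edgeR adjusted p = 0.000414). PMAIP1, the gene of NOXA, stood at 38.1 ± 1.67 CPM with AML874 and 33.5 ± 0.793 CPM with SEL120-34A. Its difference of 0.18 ± 0.07 was near the threshold (edgeR adjusted p = 0.0444), and the adjusted p reached 0.152 under other settings. BCL2L11, the gene of BIM, was not called (0.07, 95% interval 0.01 to 0.14, edgeR adjusted p = 0.0909). BNIP3L, a mitophagy receptor named here after its values were seen, averaged 43.3 CPM with AML874 and 62.3 CPM with SEL120-34A, and its difference of -0.52 ± 0.21 was not called (edgeR adjusted p = 0.0744). In all, 1 of 8 BH3-only genes was higher and 2 lower. Among 30 p53 targets 10 were lower with AML874 (33.3%) and 2 higher (6.67%), with a median of -0.10, and without SEL120-34A replicate 2 there were 6 lower. RPS27L (-0.18 ± 0.03), TP53I3 (-0.25 ± 0.04), RRM2B (-0.19 ± 0.04) and DDB2 (-0.23 ± 0.04) were among the lower ones.

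Of 33 haematopoietic transcription factors 12 were lower (36.4%) and 2 higher (6.06%), with a median of -0.09, and with library totals as the only scaling 18 were lower. The count of higher genes was 5 with a model of the compared groups only and 4 with RSEM counts. GATA2, a factor of stem and progenitor cells, had 50.4, 49.3 and 52.4 CPM with AML874, 72.0, 70.1 and 74.2 CPM with SEL120-34A and 48.6, 44.1 and 44.4 CPM with DMSO. SEL120-34A lay above both of the others and the compounds differed by -0.51 ± 0.07 (edgeR adjusted p = 8.78e-05). MEF2C, a myeloid and lymphoid factor tied to AML, was above vehicle with both compounds and more so with SEL120-34A (68.7 ± 2.51, 82.7 ± 1.36 and 51.2 ± 1.51 CPM with AML874, SEL120-34A and DMSO). Of 15 progenitor surface and receptor genes 7 were lower and 3 higher. CSF1R, the receptor of macrophage colony-stimulating factor, had 19.4, 18.9 and 18.7 CPM with AML874, 28.7, 31.0 and 29.2 CPM with SEL120-34A and 22.6, 22.0 and 23.3 CPM with DMSO. The compounds lay on opposite sides of vehicle, a difference of -0.64 ± 0.06 (edgeR adjusted p = 9.92e-10). CD34, the stem cell antigen, had 1.83, 1.77 and 1.38 CPM with AML874, 2.44, 2.65 and 2.60 CPM with SEL120-34A and 0.906, 0.830 and 0.993 CPM with DMSO. Both compounds were above vehicle, and AML874 was below SEL120-34A by -0.62 ± 0.11 (edgeR adjusted p = 2.44e-05).

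Genes of differentiated myeloid cells did not move as 1 group. Granule protein genes were higher with AML874 in 8 of 13 cases and lower in none (median 0.18), with RNASE3, the eosinophil cationic protein, at 6.62 ± 0.323 CPM, against 5.15 ± 0.440 CPM with SEL120-34A (0.36 ± 0.07). Myeloperoxidase, MPO, was not among them (7.59 ± 0.113 CPM with AML874 and 8.28 ± 0.136 CPM with SEL120-34A, -0.13, interval -0.26 to 0.01). Of 32 macrophage and monocyte surface genes 3 were higher (9.38%) and 6 lower (18.8%), the lower share being near that over all protein coding genes. MS4A6A, a monocyte membrane protein, had 187, 189 and 187 CPM with AML874, 143, 143 and 143 CPM with SEL120-34A and 71.1, 74.7 and 74.0 CPM with DMSO. Both compounds stood above vehicle and AML874 highest, 0.39 ± 0.03 above SEL120-34A (edgeR adjusted p = 2.32e-13). MS4A6A and the neighbouring MS4A3 (0.53 ± 0.06) were the called members among 8 genes of the MS4A cluster on chromosome 11. Lysosome and autophagy genes had 4 of 30 higher (13.3%) and 10 lower (33.3%), with 2 higher without AML874 replicate 1, SEL120-34A replicate 1 or SEL120-34A replicate 3. MITF, a master factor of lysosomal genes in several lineages, was 4.37 ± 0.223 CPM with AML874, 7.93 ± 0.121 CPM with SEL120-34A and 5.64 ± 0.271 CPM with DMSO (-0.86 ± 0.09).

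Antigen presentation and inflammatory genes are read here against the 20.9% of protein coding genes that were higher and the 20.2% that were lower. Of 15 MHC class II genes 8 were higher with AML874 and none lower (median 0.10), with HLA-DOA, a modulator of peptide loading, at 1.76 ± 0.165 CPM, against 1.03 ± 0.0875 CPM with SEL120-34A (0.77 ± 0.12). Of 18 MHC class I genes 2 were higher and 5 lower (27.8%), near the share over all protein coding genes. Interferon-stimulated genes had 7 of 45 higher and 15 lower (33.3%). STAT2, which carries the interferon signal, stood at 40.4 ± 1.29 CPM with AML874, 51.8 ± 2.06 CPM with SEL120-34A and 35.0 ± 0.776 CPM with DMSO (-0.36 ± 0.03). Among 26 NF-kappaB and inflammatory genes 3 were higher and 9 lower (34.6%), and 14 were lower with a model of the compared groups only. The lower ones included the interleukin 1 beta gene IL1B (-0.66 ± 0.15) and the coactivator BCL3 (-0.86 ± 0.18). The T cell receptor gene TRAC, given above, was lower with AML874 alongside these lists, and its part in them was not tested. MHC class I had 3 lower calls without SEL120-34A replicate 2, and the interferon list 4 higher calls without SEL120-34A replicate 1 and with a filter of 1 CPM.

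Immediate early and AP-1 genes had 9 of 30 lower and 2 higher, beside the 20.2% of protein coding genes that were lower, with a median of -0.16. EGR1, an immediate early factor, had 4.39, 4.93 and 4.81 CPM with AML874, 7.43, 9.30 and 6.99 CPM with SEL120-34A and 54.6, 53.7 and 89.3 CPM with DMSO. The groups did not overlap and both compounds lay far below vehicle, but the difference between the compounds of -0.75 ± 0.28 was not called (edgeR adjusted p = 0.0611). MAFF, a small MAF factor, was called (0.980 ± 0.171 CPM with AML874 and 1.77 ± 0.408 CPM with SEL120-34A, -0.87 ± 0.19). Of 16 ERK feedback and output genes 6 were lower (37.5%) and 2 higher, and of 18 STAT5 and cytokine feedback targets 10 were lower (55.6%) and 3 higher. The ETS factor ETV5, an ERK output gene, had 12.9 ± 0.446 CPM with AML874 and 18.5 ± 0.527 CPM with SEL120-34A (-0.52 ± 0.06). The kinase PIM1, a STAT5 target, differed by -0.26 ± 0.03. TGF-beta and SMAD targets had 4 of 18 lower (22.2%) and 1 higher, near the share over all protein coding genes, with 8 lower when library totals were the only scaling or with the compared groups only, and 7 with a filter of 1 CPM. SMAD6, an inhibitor of the pathway, was among the lower ones (-0.40 ± 0.04).

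The remaining lists are given together. HIF targets gave no calls among 27 genes, with a median of -0.18 and the library difference given above. Of them 21 lay below 0 and only 7 had a narrow interval, so the list was not shown to be level. There were 4 lower calls without SEL120-34A replicate 3, 2 with the compared groups only and 1 with DESeq2. Glycolysis gave 1 call of 21, the phosphofructokinase PFKM (0.24 ± 0.04). Targets of NRF2, the factor of the oxidant response, had 3 of 20 higher and 4 lower. Iron genes had 6 of 12 higher and 2 lower, with the iron-regulatory protein IREB2 higher (0.15 ± 0.03) and the ferritin heavy chain FTH1, which has many processed copies in the genome, lower (-0.24 ± 0.04). The nuclear-encoded respiratory chain had 9 of 36 higher (25%), near the share over all protein coding genes, and 3 lower (8.33%). There were 7 lower when library totals were the only scaling and 6 lower without AML874 replicate 3. Of 13 mitochondrially encoded genes 12 lay above 0, 4 were called higher and none lower. The call of MT-ND4L, whose reading frame overlaps MT-ND4, was lost under some alternatives.

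The shares of called genes are given next by gene structure. They are a description over genes of at least 1 CPM. Shares by exon number are over the 11199 protein coding genes, of which 24.3% were higher with AML874 and 21.6% lower. Of 178 genes without introns in any annotated transcript 44.9% were higher and 11.2% lower, and of 317 genes with 2 exons 29.3% were higher and 14.5% lower. Genes with 6 to 10 exons had 20.6% higher and 22.2% lower, and those with at least 21 exons 30.9% higher and 21.2% lower. The single-exon genes had a lower median level (20.2 CPM, against 39.2 CPM over all), and the part of level in these shares was not tested. RBM15B, an intronless gene of the RNA methylation machinery, had 195 ± 2.86 CPM with AML874, 160.4 ± 3.60 CPM with SEL120-34A and 197 ± 1.57 CPM with DMSO (0.28 ± 0.03). B3GALT6, a galactosyltransferase gene, had the same order (72.4 ± 2.40, 57.9 ± 2.13 and 76.9 ± 3.44 CPM with AML874, SEL120-34A and DMSO). Both had the smallest p-values among intronless genes not named above or held by a list, and were picked after their values were seen. HEXIM1 and H1-10 were intronless genes of opposite sign. Divergent and antisense transcripts and processed pseudogenes were taken from genes of any type, so the coding shares above are not their background. Their median levels were 2.45, 3.21 and 2.21 CPM, and the part of level was not tested. Of 136 divergent transcripts 31.6% were higher and 6.62% lower, and of 306 antisense transcripts 30.7% were higher and 11.1% lower. Protein coding zinc finger genes had 25.2% of 416 higher and 8.89% lower. Of 330 processed pseudogenes 5.15% were higher and 3.33% lower. The shares of these classes were not tested against each other.

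**Figure D4:**
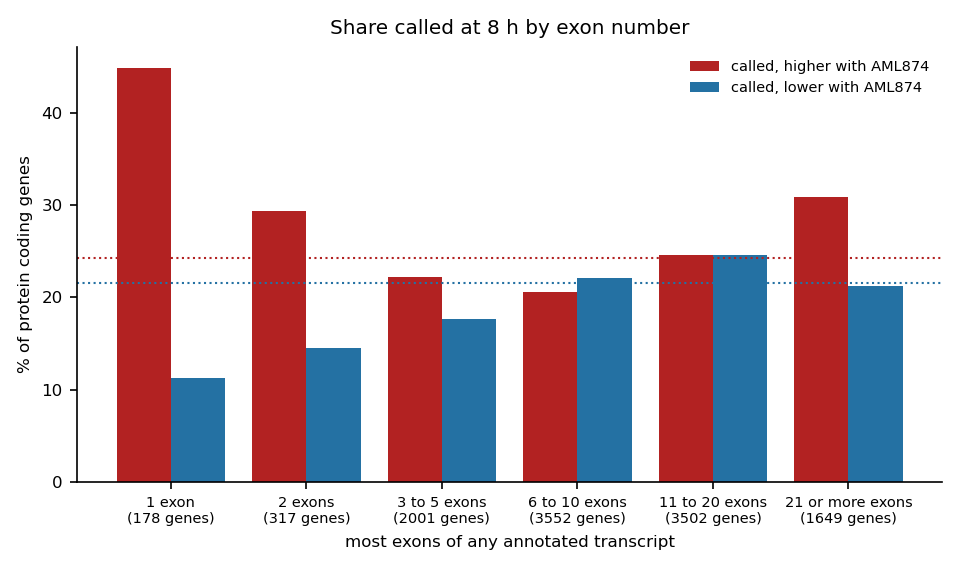
Share of protein coding genes of at least 1 CPM that were called at 8 h, by the most exons of any annotated transcript. Red bars are genes higher with AML874 and blue bars genes lower, as percent of the genes in each class, and dotted lines mark the shares over all 11199 genes (24.3% and 21.6%). The class with 1 exon has 44.9% higher and 11.2% lower.

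By 24 h the difference between the compounds had become smaller in count and partly changed its genes. At 24 h 4109 genes were called (19.6%), 1674 higher with AML874 (8.00%) and 2435 lower (11.6%). The same direction was called at both times for 1803 genes, 43.9% of the 24 h calls and 27.6% of the 8 h calls, and the opposite direction for 397. The 24 h and 8 h differences, which share no library, had a Pearson r of 0.43 across 13012 genes of at least 1 CPM, given as a description since genes are not independent. A test of the change itself called 3704 genes (17.7%, with 7.02% upward and 10.7% downward), of which 2710 had been called at 8 h. HEXIM1 kept its difference, with 25.0 ± 0.595 CPM for AML874 and 43.2 ± 2.22 CPM for SEL120-34A at 24 h, a change of -0.01 ± 0.05 from the value at 8 h (edgeR adjusted p = 0.915). BCLAF1 did not: at 24 h it had 257 ± 12.1 CPM with AML874 and 274 ± 4.83 CPM with SEL120-34A, a difference of -0.09 ± 0.03 and a change of -0.85 ± 0.04 (edgeR adjusted p = 1.36e-17). THRAP3 was at 0.01 ± 0.02 at 24 h, while its 8 h difference had an interval from 0.57 to 0.67.

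Several lists changed direction. List counts at 24 h are to be read beside the shares over all genes tested at 24 h, 8.00% higher and 11.6% lower. These were smaller than at 8 h, with fewer higher than lower, so counts at the 2 times have unlike backgrounds. ER chaperones had 2 higher and 7 lower at 24 h, against 15 higher and 2 lower at 8 h, and 15 of 22 members changed by the test. HSPA5 fell below SEL120-34A at 24 h (390.4 ± 12.1 CPM with AML874 and 425 ± 23.9 CPM with SEL120-34A, -0.12 ± 0.03). DNA replication genes had 2 higher and 13 lower at 24 h, against 20 higher and none lower at 8 h. Targets of ATF4 with tRNA synthetases had 13 lower at 24 h and none higher, and heat shock genes 12 lower and none higher, against 13 and 7 higher at 8 h. Mitosis genes were lower with AML874 in 18 of 30 cases at each time. MHC class II genes were higher in 10 cases at 24 h and 8 at 8 h, mitochondrially encoded genes in 12 and 4, and interferon-stimulated genes in 15 and 7, the last with 3 lower at 24 h and 15 at 8 h. MHC class I genes had 9 higher and none lower at 24 h.

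Named genes changed in both directions. CLEC5A, an activating receptor of myeloid cells, had 3.00 ± 0.184 CPM with AML874 and 13.2 ± 1.53 CPM with SEL120-34A at 24 h (-2.13 ± 0.13), against 6.29 ± 0.502 CPM with AML874 and 9.78 ± 0.501 CPM with SEL120-34A at 8 h (-0.63 ± 0.12). MPO had 4.79 ± 0.473 CPM with AML874 and 12.1 ± 1.00 CPM with SEL120-34A at 24 h, a change of -1.22 ± 0.09 in the difference (edgeR adjusted p = 1.24e-10). MS4A3 turned from higher to lower, with 10.0 ± 0.721 CPM for AML874 and 15.3 ± 0.539 CPM for SEL120-34A at 24 h. In the other direction ID2, an inhibitor of basic helix-loop-helix factors, had 39.3 ± 2.98 CPM with AML874 and 20.5 ± 1.05 CPM with SEL120-34A at 24 h (0.94 ± 0.05), and 25.5 ± 0.223 CPM with AML874 and 27.6 ± 0.990 CPM with SEL120-34A at 8 h. GBP4, an interferon-induced GTPase, changed by 1.13 ± 0.12, from lower to higher with AML874.

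**Figure D5:**
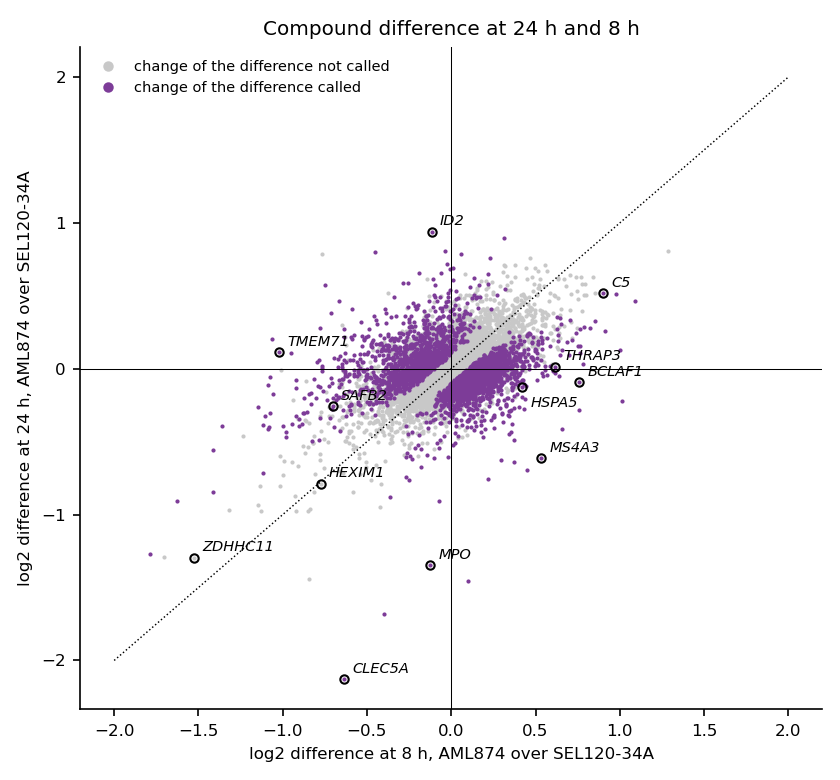
Difference between the compounds at 24 h (y axis) against that at 8 h (x axis), both as log2 of AML874 over SEL120-34A, for 13012 genes of at least 1 CPM. Purple points are genes whose difference changed by the test and grey points the rest, and the dotted line marks equal values at both times. HEXIM1 lies on that line, BCLAF1 lies near 0 at 24 h, and CLEC5A and MPO lie far below it.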

How the data were processed

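RNA of OCI-AML1 cells was sequenced after 8 h or 24 h with AML874, SEL120-34A or DMSO, 3 libraries a group. The authors deposited read counts per gene in the layout of STAR gene counts, unnormalized, and RSEM expected counts and TPM values (scaled for length and depth). Per the submitters' processing notes, STAR 2.7.1a, RSEM 1.3.2 and the build GRCh38 were used, and the annotation release is not given in the sources used here. The reverse-strand count column was used throughout. Its 4 summary lines, which name no gene, held 21.9% to 25.5% of the reads and were left out. Of 60609 gene identifiers 58457 matched GENCODE 29, which gave gene structures and coordinates.

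All 18 libraries were fitted in 1 model of 6 groups with edgeR 4.0.16 (R 4.3.3), using filterByExpr, TMM scaling and the robust quasi-likelihood test with Benjamini-Hochberg adjustment over 20920 genes, and SEs and 95% intervals were derived from its F statistic. In counts simulated on these libraries the test recovered 92%, 100% and 100% of genes planted with 1.5-, 2- and 4-fold differences (50 each). It recovered 78% at the smallest planted difference. There were 10 false calls among 20351 unchanged genes, of 20551 tested. Far fewer genes differed there than the 31.2% called in these data, and recovery was not split by level. These rates may thus not hold for these data, and recovery of genes of low level was not shown. CPM was computed with TMM-scaled totals. Alternatives were other scalings, filters, tools and read assignments, a model of the compared groups only, a replicate block and leaving out each library. No 2 libraries of a group agreed within sampling noise.

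Genes were named by a rule. It took the 12 largest differences each way among called protein coding genes of at least 5 CPM without overlap between groups. It added up to 4 called members of at least 1 CPM with the smallest p from each of 41 lists, 17 genes of prior interest, and the 5 largest changes to 24 h each way. Exceptions are stated beside them, and some named genes are not reported here. The members compared, the lists and the rule were chosen with earlier results of these data known. Promoter sequences came from RefSeq (GRCh38.p14), where 21 of the 22 genes of the ER chaperone list had an entry.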

Additional observations from a re-analysis of the deposited data

Results flagged for a closer look

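The difference between the compounds at 24 h differed from that at 8 h by a test of the change itself for 3704 of 20920 genes (edgeR quasi-likelihood test, adjusted over all genes). The changes below are the 24 h difference minus the 8 h difference, both as log2 of AML874 over SEL120-34A, for named genes that passed that test.

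Among genes that had been lower with AML874 at 8 h, the difference moved upward for TMEM71 (1.14), GBP4 (1.13), CD69 (1.09), SCART1 (0.85), ABTB1 (0.73), CASTOR3P (0.68), GSDMB (0.60), YJEFN3 (0.51), PINK1 (0.51) and BMF (0.38). EGR1 (1.33) and ID2 (1.06) moved upward too and had not been called at 8 h, although ID2 was called lower there in 7 of 16 alternatives and EGR1 in 3. The change of YJEFN3 lost its call with unstranded counts and without any of 11 libraries left out in turn (edgeR adjusted p = 0.0584 to 0.121). That of BMF lost it with the replicate block (edgeR adjusted p = 0.0944), with unstranded counts and without any of 6 libraries. That of EGR1 lost it with limma-voom (limma adjusted p = 0.0899), with the block (edgeR adjusted p = 0.0539) and without any of 4 libraries.

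Among genes that had been higher with AML874 at 8 h, it moved downward for MS4A3 (-1.15), BCLAF1 (-0.85), THRAP3 (-0.60), MSMO1 (-0.60), ANGEL1 (-0.50), C5 (-0.38), DNAJC30 (-0.36), PCCA (-0.35), PSEN2 (-0.34), GNE (-0.30), SIRPB2 (-0.27) and MED13 (-0.25). The change of GNE lost its call with RSEM counts (edgeR adjusted p = 0.0626) and without any of 5 libraries (edgeR adjusted p = 0.0511 to 0.0739). CLEC5A, already lower with AML874 at 8 h, moved further down (-1.49). SERPINB10 (-1.55), SERPINB2 (-1.28), MPO (-1.22) and BCL2L11 (-0.26) moved downward and had not been called at 8 h, SERPINB2 being called lower there in 6 of 16 alternatives and BCL2L11 higher in 1. SERPINB10 and SERPINB2 overlap on the same strand, so their reads may not be told apart.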

How the results depend on the processing

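The count of 6536 genes that differ at 8 h ranged from 6172 with a replicate block to 6940 with a model of the compared groups only, and from 5506 to 5802 when each library was left out. Calls upward ranged from 2756 to 2973 and downward from 2689 to 2905 without a library, at least 1.5-fold calls from 245 to 282 upward and 521 to 578 downward, and at least 2-fold calls from 73 to 97 upward and 250 to 270 downward. With a filter of 1 CPM in 3 libraries, 101 genes were at least 1.5-fold higher and 245 lower, and 6 at least 2-fold higher and 55 lower, since that filter tests fewer genes of low level. Narrow intervals were held by 71.0% of genes under that filter, 26.5% under a filter of 1 count, and 43.0% to 43.6% without a library. DESeq2 and limma-voom gave no such interval here. The change to 24 h was called for 3303 genes with the block and 3030 to 4053 without a library. The replicate numbers do not pair the libraries of the 2 compounds at 8 h, whose deviations correlated by -0.014, 0.020 and 0.030, each library correlating best with another number, and the block changed no count over all genes by more than 1.5-fold. In 4 lists it left 1 call, against 2 without it: the lower calls of the multidomain BCL2 family, the endoplasmic reticulum chaperones and the ATF4 targets, and the higher calls of the cyclin D list. With library totals as the only scaling 43.4% of calls at 8 h were upward, against 51.2%. Of 168 named genes called at 8 h, 161 kept call and direction under every alternative run, and BAK1, BCL2, CCND2, MT-ND4L, PMAIP1, RBL2 and RPS12 did not. Of named genes not called at 8 h, EGR1 was called with DESeq2, with the 1 CPM filter and with the compared groups only, ID2 in 7 of 16 alternatives, SERPINB2 in 6, MCL1 in 2 and BCL2L11 and MED12 in 1 each. With library totals alone the elongation factor list had 3 higher calls, against 6, the lysosome list 2, against 4, and the respiratory chain 7 lower calls, against 3. Counts of 1 or 2 called members of a list moved by 1 or 2 calls without 1 library in several lists. Narrow intervals were rarer at low levels, being held by 46.0% of all genes tested and 74.0% of those of at least 1 CPM.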
